A study of Homo sapiens with 6 samples.

Results

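The immediate early factors FOS, FOSB, FOSL1, FOSL2, JUN, JUNB, JUND, ATF3, EGR1 and IER3 were examined in H1975 cells before and after adaptation to Osi. They are 10 genes chosen by name, without using measured values, and all 10 were found among the 27216 rows of the expression table. H1975 is a human NSCLC (non-small cell lung cancer) line with mutant EGFR, and Osi (osimertinib) is an EGFR tyrosine kinase inhibitor. RNA-sequencing values of 6 samples were available, 3 of parental cells (0 h) and 3 of adapted cells (72 h of Osi), and the labels give an Osi dose of 1000 nM with both times, while a reagent list of the study gives a lower dose for cells without naming the assay. The columns of the parental samples bear the name DMSO and the design text of the series lists DMSO as a treatment, whereas the sample labels give these cells as Osi at 0 h, so whether and how long they received the solvent is unclear. According to the labels, dead cells were rinsed off before RNA was taken, so the adapted samples hold the cells that were still attached. The labels also describe removal of linear RNA, as done for circular RNA, which the methods of the study do not mention. Both groups are the same cell line, and although the study describes its experiments in general as independent, nothing ties this to the 3 samples of a group as separate cultures, so p-values measure only the spread between these samples, which may be technical.

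Immediate early genes are transcribed within minutes of a growth factor signal, before any new protein is needed. EGFR drives them through RAS and the kinases RAF, MEK and ERK, and ERK phosphorylates the ternary complex factors that sit with SRF on CArG boxes in promoters such as those of EGR1 and FOS. FOS family proteins pair with JUN family proteins to form the AP-1 transcription factor, EGR1 is a zinc finger transcription factor, ATF3 is a stress-induced bZIP factor that can pair with JUN proteins, and IER3 is an early response protein linked to cell survival.

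The promoters of 5 members are given here because 3 of them belong to genes that fell (EGR1, FOS and JUNB). The others belong to JUN and JUND, which did not fall past the threshold with all 6 samples. Each is the 250 bases before the RefSeq start of the gene in GRCh38.p14, 5′ to 3′ on the gene's own strand. They lie at chr5:138465229-138465478 (EGR1, plus strand), chr14:75278578-75278827 (FOS, plus strand), chr19:12791236-12791485 (JUNB, plus strand), chr1:58784048-58784297 (JUN, minus strand) and chr19:18281623-18281872 (JUND, minus strand). Capitals mark the motif matches that were found on either strand.
EGR1: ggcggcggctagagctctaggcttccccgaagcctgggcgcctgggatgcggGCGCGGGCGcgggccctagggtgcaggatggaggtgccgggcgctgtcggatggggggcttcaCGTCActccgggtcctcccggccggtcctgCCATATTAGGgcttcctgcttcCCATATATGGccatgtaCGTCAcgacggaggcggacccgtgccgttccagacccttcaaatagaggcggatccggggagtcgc
FOS: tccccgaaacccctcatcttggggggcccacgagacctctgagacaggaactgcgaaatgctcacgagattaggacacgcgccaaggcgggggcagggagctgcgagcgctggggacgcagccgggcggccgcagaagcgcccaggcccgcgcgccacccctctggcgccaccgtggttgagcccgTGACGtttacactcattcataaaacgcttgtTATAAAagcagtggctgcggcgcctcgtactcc
JUNB: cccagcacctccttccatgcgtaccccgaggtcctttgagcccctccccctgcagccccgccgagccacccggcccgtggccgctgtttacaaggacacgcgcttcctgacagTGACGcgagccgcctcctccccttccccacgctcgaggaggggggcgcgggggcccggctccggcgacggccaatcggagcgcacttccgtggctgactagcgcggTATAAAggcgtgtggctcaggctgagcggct
JUN: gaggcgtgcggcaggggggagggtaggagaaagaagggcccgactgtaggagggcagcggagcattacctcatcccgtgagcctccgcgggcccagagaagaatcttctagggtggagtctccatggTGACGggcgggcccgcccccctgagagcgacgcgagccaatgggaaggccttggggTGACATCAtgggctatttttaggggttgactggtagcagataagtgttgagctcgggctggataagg
JUND: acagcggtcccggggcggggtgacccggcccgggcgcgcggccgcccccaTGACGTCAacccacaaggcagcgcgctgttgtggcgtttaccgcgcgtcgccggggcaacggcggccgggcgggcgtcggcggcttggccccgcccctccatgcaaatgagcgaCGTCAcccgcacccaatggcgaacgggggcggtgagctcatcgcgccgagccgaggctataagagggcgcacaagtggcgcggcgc

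Of the 10 members, 8 were matched to a RefSeq promoter, but FOSL1 and IER3, which also fell in the case of IER3, were not. The motifs searched were the AP-1 site (TGANTCA), the cAMP response element (CRE, TGACGTCA), its core (TGACG), which lies within the CRE, a CRE variant (TGACATCA), the EGR site (GCGNGGGCG), the TATA box (TATAAA) and the CArG box by its name. The EGR1 window held 2 CArG boxes, at -105 to -96 and at -83 to -74 from the start, 2 CRE cores and 1 EGR site. A CArG box was present in 1.17% of 34788 RefSeq promoter windows of the same length, and an EGR site in 8.41%. Outside EGR1, no CArG box was matched in the window of any member, FOS included, and sequence further from the start was not searched. The FOS window held 1 CRE core at -64 to -60 and 1 TATA box, and the JUNB window held 1 core at -137 to -133 and 1 TATA box. In JUN there was 1 CRE variant at -67 to -60 and 1 core, and in JUND 1 full CRE at -200 to -193 and another core at -86 to -82. Among members whose promoters are not printed, FOSB, low in both groups, held 1 core at -60 to -56 and 1 TATA box at -30 to -25. FOSL2, which rose, held 2 cores. ATF3, which did not pass the threshold, held 1 CRE variant in 1 window and 1 TATA box in another. The TATA box was thus not confined to genes that fell. Across all RefSeq windows, the CRE was found in 1.64%, its core in 21.2%, the variant in 2.36% and the TATA box in 10.8%. The AP-1 site, present in 6.59% of windows, was not matched in the window of any of the 8 members. These matches are letters in a window and not evidence of binding.

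The deposited values are on a log2 scale, read from the values as log2(FPKM + 1), FPKM being fragments relative to transcript length and to all mapped fragments of the sample. Levels of different genes are compared below as linear FPKM, which is per length. The sum of all linear values in a sample ranged from 375342 to 387753. No read counts were used here and the depth is unknown, so errors rest on the spread between replicates alone. Parental samples correlated with each other at r = 0.997 across all rows and adapted samples at 0.991 to 0.996, across genes, which are not independent replicates. All 8 epithelial markers exceeded a log2 value of 1 in every sample, as did the lung adenocarcinoma markers NKX2-1 and NAPSA, whereas SFTPB did not reach it in any sample. Summed FPKM of the epithelial markers was 4112 to 4165 in parental and 3788 to 4218 in adapted cells. Of 5 leukocyte markers, CD3E was listed at 0 in all samples, PTPRC did not exceed 0.08, and only CD68, which many cancer lines express, exceeded 1, with sums over the list of 74.6 to 76.9 in parental and 14.8 to 29.8 in adapted cells. In the lists of 6 fibroblast and 3 endothelial markers the summed FPKM was 3.04 to 3.17 and 1.13 to 1.86 in parental cells and 8.60 to 9.33 and 1.42 to 3.47 in adapted cells. The part of these low markers in the results was not tested.

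Parental and adapted cells were compared with limma on the 12656 rows with a mean log2 value of at least 1 over the 6 samples, and p-values were adjusted over all of these rows (Benjamini-Hochberg, threshold 0.05). EGR1, IER3, FOS and JUNB were lower in adapted cells, FOSL2 and JUN were higher, and FOSL1, ATF3 and JUND did not pass the threshold. FOSB, with a mean under 1, was not tested. Thus 4 of the 9 members tested fell, against 26.2% of all rows tested, and 2 rose, against 30.7%. At a fold change of at least 2 on this scale, the same 4 members were lower, against 5.18% of all rows, and 0 were higher, against 5.31%. The values of the parental and adapted groups did not overlap for 6 of the 10 members, and this was so for 66.3% of all rows tested. EGR1 and FOS passed the filter on low values only through the parental cells, since their adapted means were under 1. In bulk samples such as these, fewer cells that express a gene and less RNA per cell cannot be told apart.

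EGR1 showed the largest change of the 9 members tested. Its log2 level was 4.21, 4.19 and 4.14 in parental replicates 1 to 3 and 0.34, 0.15 and 0.28 in the adapted replicates. On the linear scale this was 17.1 ± 0.46 FPKM in parental and 0.196 ± 0.080 FPKM in adapted cells (SD, n = 3 each), 87.2 times lower. All 3 parental samples were high, all 3 adapted samples were near 0, and the groups did not overlap. The log2 fold change was -3.92 with an SE of 0.08 (limma, adjusted p = 3.47e-07), the 19th largest fall among all rows tested. The added 1 shrinks the change of low genes, and with 0.1 in its place the log2 fold change of EGR1 was -5.90. By GENCODE v29 the gene lies at chr5:138465490-138469315 (plus strand) and no other gene overlaps it.

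The EGR family and its partners were also measured. EGR2, EGR3 and EGR4, the paralogs of EGR1, had means under 1 and were not tested. EGR2, singled out after its values were seen, was at log2 levels of 0.16, 0.39 and 0.36 in parental and 0.02, 0.00 and 0.02 in adapted cells. All 3 adapted samples were at or near 0, and the parental samples were low as well. NAB1 and NAB2 encode corepressors that bind EGR proteins. NAB2 fell from 3.87 ± 0.04 to 2.59 ± 0.12 (SD, n = 3 each) and the fall of NAB1 was smaller, with a log2 fold change of -0.64 (limma's adjusted p was 2.12e-05 and 0.00302).

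IER3 was among the highest members in parental cells, where its log2 level was 6.56, 6.62 and 6.50, and it was at 4.39, 3.77 and 3.97 in the adapted replicates. Its linear level went from 93.4 ± 3.65 to 15.7 ± 3.76 FPKM (SD, n = 3 each), a ratio of 5.93. The highest adapted sample, replicate 1, was still far below the lowest parental one. On the log2 scale the fold change was -2.52 (SE 0.15, limma, adjusted p = 1.70e-05), the 62nd largest fall. IER3 lies at chr6:30743199-30744554 on the minus strand and overlaps the antisense gene IER3-AS1, and since it is not stated whether counting used strand, reads of this pair may not have been told apart.

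Within the FOS family, FOS itself, the partner with the classic rapid response, had log2 levels of 2.91, 3.0 and 2.98 in parental cells and 0.66, 0.56 and 0.55 in adapted cells. The groups did not overlap, and each group spread by little. Linear levels were 6.79 ± 0.25 and 0.504 ± 0.063 FPKM (SD, n = 3 each), 13.5 times lower after adaptation. Its log2 fold change was -2.37 (SE 0.08, limma, adjusted p = 1.99e-06), the 75th largest fall, and -3.52 with 0.1 added in place of 1. FOS lies at chr14:75278774-75282230 on the plus strand.

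FOSB was low in both groups, with log2 levels of 0.38, 0.38 and 0.42 in parental and 0.68, 0.39 and 0.28 in adapted cells. The adapted samples fell on both sides of the parental ones. In a fit with no filter on low values its log2 fold change was 0.06, with a 95% interval of -0.24 to 0.35 (limma, adjusted p = 0.813), so a difference within that interval was not resolved. FOSB overlaps ERCC1 on the other strand at chr19:45467995-45475179, and ERCC1 is in the table as well.

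FOSL1, which encodes FRA-1 and is a known target of ERK signaling in cancer cells, was almost identical in the parental samples, at log2 levels of 5.60, 5.60 and 5.62, and ranged widely in the adapted samples, at 5.74, 4.15 and 4.48. Adapted replicate 1 was above every parental sample and adapted replicates 2 and 3 were below every one, so the groups overlapped. Linear levels were 47.6, 47.4 and 48.2 FPKM in parental and 52.3, 16.8 and 21.3 FPKM in adapted cells. The log2 fold change was -0.82 (95% interval -1.67 to 0.03) and did not pass the threshold (limma, adjusted p = 0.0899). This rested on 1 sample, and without adapted replicate 1 the log2 fold change was -1.29 (95% interval -1.51 to -1.07, limma, adjusted p = 2.39e-05). That p-value rests on the spread of only 2 adapted samples. Without adapted replicate 2 or 3 the log2 fold change was -0.50 or -0.66 and did not pass the threshold (limma, adjusted p = 0.264 and 0.231). The gene is at chr11:65892049-65900573 on the minus strand.

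FOSL2, which encodes FRA-2, differed from FOS in direction. Its log2 level was 5.33, 5.34 and 5.25 in parental and 5.75, 5.67 and 5.61 in adapted cells. All 3 adapted samples were above all 3 parental samples by a small margin. The linear level went from 38.6 ± 1.30 to 50.1 ± 2.52 FPKM (SD, n = 3 each), and the log2 fold change was 0.37 (95% interval 0.22 to 0.52, limma, adjusted p = 0.00192). FOSL2 lies at chr2:28392448-28417312 on the plus strand and overlaps FLJ31356 and AC104695.3.

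Taking the 4 FOS family genes as a sum of FPKM, the total was 93.5, 94.1 and 92.5 in parental and 106.3, 67.4 and 69.8 in adapted cells. FOSL1 made up 50.9%, 50.4% and 52.1% of it in the parental samples and 49.2%, 24.9% and 30.6% in the adapted samples. FOSL2 made up 41.8%, 41.9% and 40.1% before and 49.7%, 74.0% and 68.5% after adaptation. FOS supplied 6.96% to 7.46% in parental and 0.542% to 0.696% in adapted cells. Thus FOSL1 was the most abundant FOS family mRNA in all 3 parental samples, while FOSL2 was the most abundant in adapted replicates 2 and 3 and the 2 were nearly equal in adapted replicate 1, at a FOSL1 to FOSL2 ratio of 0.992.

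In the JUN family, JUNB was the highest member in parental cells and fell. Its log2 level was 6.65, 6.68 and 6.65 in parental and 4.58, 4.57 and 4.85 in adapted cells. The groups were far apart, and JUNB was the 1 member of the 10 whose highest adapted value was not in replicate 1. The linear level went from 100.3 ± 1.28 to 24.5 ± 2.90 FPKM (SD, n = 3 each), a ratio of 4.10. The log2 fold change was -2.0 (SE 0.09, limma, adjusted p = 4.93e-06), the 137th largest fall. JUNB lies at chr19:12791496-12793315 on the plus strand and overlaps HOOK2 on the minus strand, which is also in the table.

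JUN, a strong activator within AP-1, was at log2 levels of 5.65, 5.57 and 5.58 in parental and 6.20, 5.80 and 5.76 in adapted cells. All adapted samples lay above all parental samples, replicate 1 by the most. The linear level was 47.5 ± 1.65 FPKM before and 60.2 ± 10.7 FPKM after adaptation (SD, n = 3 each). The log2 fold change of 0.32 (95% interval 0.05 to 0.60) passed the threshold narrowly (limma, adjusted p = 0.0469). The call was lost in 7 of 18 alternatives, among them the fits without parental replicate 1, 2 or 3 or adapted replicate 2 (0.35, 0.31, 0.31 and 0.38, with adjusted p from 0.0521 to 0.125 by limma), and without adapted replicate 1 the log2 fold change was 0.19 (adjusted p = 0.0147). JUN is at chr1:58780788-58784327 on the minus strand.

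JUND, a constitutively expressed JUN protein, had log2 levels of 4.48, 4.4 and 4.51 in parental and 4.63, 4.18 and 4.2 in adapted cells. Adapted replicate 1 was above and the other two below every parental sample. Its log2 fold change was -0.13 with a 95% interval of -0.42 to 0.16 (limma, adjusted p = 0.407), and without adapted replicate 1 it was -0.28 and past the threshold (limma, adjusted p = 0.00389). JUND lies at chr19:18279760-18281622 on the minus strand.

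Summed FPKM of the JUN family was 170.4, 168.2 and 168.0 in parental and 119.2, 94.7 and 98.5 in adapted cells, lower in all 3 adapted samples. JUNB made up 58.5%, 60.5% and 59.2% of the sum before and 19.2%, 24% and 28.2% after adaptation. The share of JUN was 29%, 27.6% and 27.8% before and 60.9%, 57.9% and 54.1% after. JUND held 11.9% to 13% of the parental and 17.6% to 20.0% of the adapted sum. JUNB thus exceeded JUN by a ratio of 2.02 to 2.19 in the parental samples, and JUN exceeded JUNB by 1.92 to 3.17 in the adapted samples. These shares are a description without a test.

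**Figure D1:**
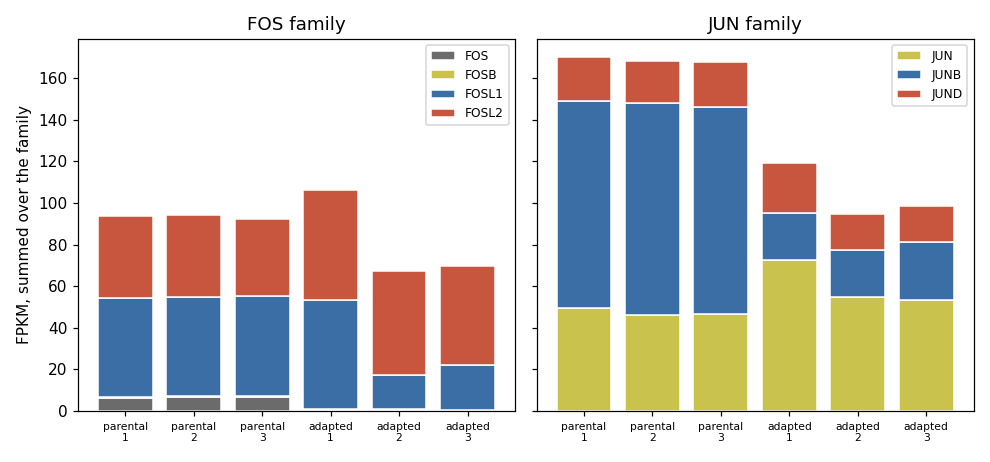
FPKM summed over the FOS family (left) and the JUN family (right) in each of the 6 samples, with 1 bar per sample divided by gene (FOSB, at 0.211 to 0.603 FPKM, is too small to see). The JUNB segment shrinks in all 3 adapted samples, and the FOSL1 segment shrinks in adapted replicates 2 and 3 while adapted replicate 1 has the highest FOS family sum, 106.3.

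ATF3, a factor induced by many kinds of stress, was at log2 levels of 3.83, 4.14 and 3.73 in parental and 3.96, 3.23 and 2.89 in adapted cells. Adapted replicate 1 fell within the parental range and the other adapted samples were below it. A log2 fold change of -0.54 (95% interval -1.14 to 0.06) did not pass the threshold (limma, adjusted p = 0.11), and it was -0.84 without adapted replicate 1 (limma, adjusted p = 0.0018). ATF3 lies at chr1:212565334-212620777 on the plus strand. For the 6 members whose groups did not overlap, the exact permutation test over samples gave p = 0.1, the smallest that 3 against 3 samples allow, and for FOSB, FOSL1, JUND and ATF3 it gave 0.8, 0.4, 0.4 and 0.3 (two-sided).

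By mean FPKM, the order in parental cells was JUNB, IER3, FOSL1, JUN, FOSL2, JUND, EGR1, ATF3, FOS and FOSB, running from 100.3 to 0.313 FPKM. Only the neighbors FOSL1 and JUN, at 47.7 and 47.5 FPKM, had ranges that overlapped. In adapted cells the order was JUN, FOSL2, FOSL1, JUNB, JUND, IER3, ATF3, FOS, FOSB and EGR1, from 60.2 to 0.196 FPKM. Only the ranges of JUN and FOSL2 and of ATF3 and FOS were apart, and all other neighbors overlapped. EGR1 moved from the middle of the order to its end.

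Adapted replicate 1 stood apart within these genes and also across all rows. There it correlated at r = 0.991 with adapted replicates 2 and 3, which correlated with each other at 0.996. It was also closer to the parental samples, at 0.972 to 0.973, than adapted replicates 2 and 3 were, at 0.963 to 0.964. Adapted replicate 1 was the highest of the 3 adapted samples for 9 of the 10 members, all but JUNB, and for 39.6% of all rows tested. The SD on the log2 scale was larger in adapted than in parental cells for 10 of 10 members, as it was for 79.9% of rows. Without adapted replicate 1, 7 members were lower, the 4 named above and FOSL1, ATF3 and JUND, and 2 were higher, FOSL2 and JUN, while 30.8% of all rows were then lower and 35.4% higher. In each fit that left out 1 of the other samples instead, 4 members were lower.

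**Figure D2:**
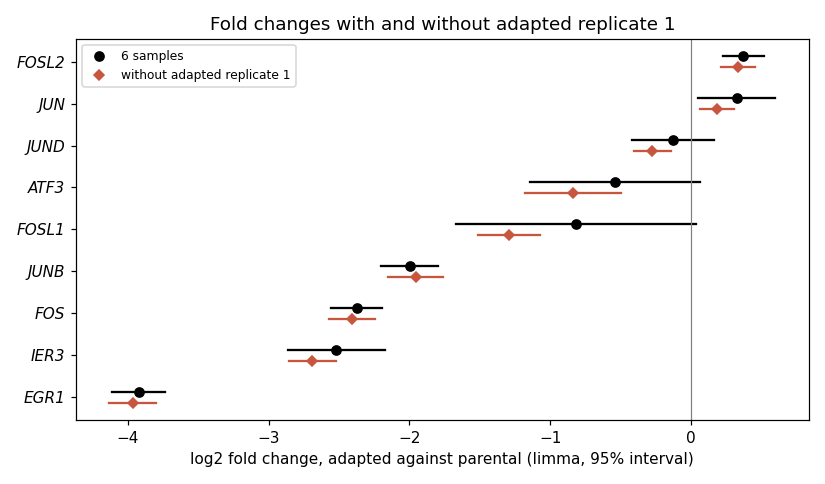
Log2 fold change of adapted against parental cells (horizontal axis, 95% intervals from limma) for the 9 members tested, with all 6 samples (black circles) and without adapted replicate 1 (red diamonds). The intervals of FOSL1, ATF3 and JUND reach 0 with 6 samples and lie below it without that sample, whereas those of EGR1, IER3, FOS and JUNB lie below -1 in both.

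Because the 10 members are part of a larger early response, 35 other immediate early genes were examined, of which 29 could be tested. Of these, 7 rose and 17 fell, against 30.7% and 26.2% of all rows tested. The median log2 fold change was -0.33, and the median over all rows tested was 0.03. The largest rises were in CTGF (CCN2), a matrix protein induced by SRF and YAP, from 1.13 ± 0.12 to 4.19 ± 0.28, in RHOB, a small GTPase, from 2.31 ± 0.04 to 5.34 ± 0.09, and in GADD45B, a stress response gene, from 2.83 ± 0.01 to 5.14 ± 0.07 (SD, n = 3 each, log2 levels). The largest falls were in ZFP36, which speeds the decay of short-lived mRNAs, from 4.98 ± 0.05 to 3.01 ± 0.20, in PHLDA1 from 5.62 ± 0.11 to 3.94 ± 0.26, and in the nuclear receptor NR4A1 from 1.84 ± 0.15 to 0.58 ± 0.28. Limma's adjusted p for these 6 genes was between 5.52e-07 and 4.72e-04. Early genes therefore moved in both directions, and MYC, with a log2 fold change of -0.07, did not pass the threshold (limma, adjusted p = 0.658). NR4A1 passed the filter on low values only through the parental cells.

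Some other bZIP factors can pair with FOS or JUN proteins or compete with them for DNA. Of 37 other bZIP genes examined, 31 were tested, 6 rose and 15 fell, against 30.7% and 26.2% of all rows tested. Their median log2 fold change was -0.27. JDP2, a repressor that pairs with JUN, rose by 0.83 (SE 0.16), ATF5 by 0.58 (SE 0.09) and CREB3 by 0.57 (SE 0.07) on the log2 scale, with limma's adjusted p from 3.15e-04 to 0.00395. MAFF, a small MAF protein, went from 4.10 ± 0.03 to 2.16 ± 0.59, CEBPD from 6.28 ± 0.07 to 4.51 ± 0.20 and CEBPB, an inflammatory C/EBP factor, from 6.30 ± 0.09 to 4.66 ± 0.13 (SD, n = 3 each; by limma the adjusted p was 6.40e-04, 1.66e-05 and 1.07e-05). No bZIP gene of this list rose at least 2-fold, against 5.31% of all rows tested, and 4 fell by that much, against 5.18%. Without parental replicate 3, the number that rose was 3.

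Genes known from other systems as AP-1 targets changed in both directions and included some of the largest falls of the table. Of 25 genes, 20 were tested, 5 rose and 13 fell, against 30.7% and 26.2% of all rows tested. The median log2 fold change was -0.65. HBEGF, a ligand of EGFR, rose from 0.59 ± 0.22 to 3.47 ± 0.06 (SD, n = 3 each, log2 levels), and it passed the filter only through the adapted cells. The cytokine IL1A was at 5.84, 5.74 and 5.72 in parental and 0.92, 0.94 and 0.98 in adapted cells, the 8th largest fall, and it passed the filter on low values only through the parental cells. IL1B, another cytokine of this family, fell by 4.36, the 12th largest. CXCL8, a chemokine that attracts neutrophils, fell from 8.94 ± 0.07 to 6.30 ± 0.39. Limma's adjusted p for these 4 genes was between 1.14e-07 and 3.15e-05. CCL2, another chemokine, was at 2.78, 2.64 and 2.83 in parental and 5.43, 3.53 and 3.94 in adapted cells (limma, adjusted p = 0.0184), with adapted replicate 1 well above the rest, and lost the call without parental replicate 2 (adjusted p = 0.0561). Of the 20 target genes, 12 had their highest adapted value in replicate 1, as did 39.6% of all rows tested.

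RAS genes, the kinases that lead to these factors, SRF and its partners were measured as well. Their list, called the upstream genes below, also held the EGR corepressors NAB1 and NAB2. Of 29 genes, 28 were tested, 7 rose and 10 fell, where 30.7% of all rows tested rose and 26.2% fell. NAB1 and NAB2, reported above, were among the 10 that fell. With genes on both sides, the median log2 fold change was -0.07. MRTFA, an actin-regulated coactivator of SRF, rose from 3.35 ± 0.02 to 4.30 ± 0.09 (SD, n = 3 each; by limma the adjusted p was 4.05e-05). MAP2K1, which encodes the ERK kinase MEK1, fell from 5.33 ± 0.09 to 4.24 ± 0.22 (limma, adjusted p = 2.17e-04). SRF, which is also among the early genes, was lower by a smaller amount, at 4.02 ± 0.02 before and 3.70 ± 0.17 after adaptation (limma, adjusted p = 0.0183). MAPK8, which encodes JNK1, was higher by 0.78, but its adapted values carry an added constant of 0.65 that sets them off the decimal grid of the table. With the constant subtracted, its log2 fold change was 0.13 (limma, adjusted p = 0.435). MAP2K2 carries the same constant and MAPK9 one of 0.2 in the parental samples, no member carried one, and with the constants subtracted 4 genes of the list were higher. The number that fell was 5 without parental replicate 1 and 5 without parental replicate 2.

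Heat shock genes, which respond to handling and stress as immediate early genes do, were examined as a check. Of 8 genes, 4 rose and 3 fell, against 30.7% and 26.2% of all rows tested, with a median of 0.19. HSPA1A rose by 1.28, HSPA1B by 1.17 and HSPA8 by 0.99 on the log2 scale (by limma, adjusted p from 3.20e-05 to 1.58e-04), and the first 2 are near-identical copies whose reads may have been split between them. HSPD1, HSPB1 and HSPE1 fell by 0.72, 0.49 and 0.47 (limma, adjusted p from 8.77e-04 to 0.00353). The part of handling in the values of the members was not tested.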

How the data were processed

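RNA-sequencing values of 3 parental and 3 adapted samples of H1975 cells were analyzed. The authors deposited 1 table of log2 values, with 27216 rows and 1 column per sample. Its unit is not named and was taken as log2(FPKM + 1), because undoing the logarithm and the added 1 left numbers of 6 decimals. In 147 rows 1 group carries an added constant, and these rows were kept as deposited. The submitters' processing notes name hg38, STAR, Bowtie2 2.1.0 and edgeR without their roles, and the quantifier and annotation are not given in the sources used here. The authors' methods name a count-based test, which this table cannot feed, so limma 3.58.1 in R 4.3.3 (lmFit, eBayes with a trend) was used instead, unpaired, on rows with a mean of at least 1.

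Locations are from GENCODE v29 and promoters from RefSeq. CCN1 and CCN2 were matched to CYR61 and CTGF by synonym. The named genes are all members and, from each other list, up to 3 genes that rose and 3 that fell most past the threshold without overlap, though not every gene so chosen is reported here. Genes outside this rule were chosen after their values were seen, among them EGR2, MYC, SRF, MAP2K2 and MAPK9. The members and lists were chosen with earlier results of these data known. Alternatives concerned the pseudocount, filter, normalization, variance model, threshold, replicate block, added constants, unannotated rows and each sample left out.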

Additional observations from a re-analysis of the deposited data

How the results depend on the processing

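No count model could be run, since the table holds no counts, and depth limits cannot be given. Across 18 alternatives, FOS and EGR1 (17 each, since the stricter filter removed them), JUNB, IER3 and FOSL2 kept their direction and their side of the threshold, with log2 fold changes of -3.52 to -2.35, -5.90 to -3.87, -2.09 to -1.95, -2.69 to -2.38 and 0.33 to 0.42. JUN (0.32) missed the threshold with no filter (0.32, adjusted p = 0.148), with median centring (0.30, 0.0605) and with eBayes without a trend (0.32, 0.0546, all limma), and 1 member was then higher. Over fits that each left out 1 sample, the log2 fold change was 0.19 to 0.40 for JUN, -1.29 to -0.50 for FOSL1, -0.2756 to -0.0486 for JUND and -0.84 to -0.30 for ATF3, 4 to 7 members were lower, 1 to 2 were higher, 3 to 7 of the other bZIP genes were higher and 5 to 11 of the upstream genes were lower. With the stricter filter (mean of at least 3), 4532 rows passed the threshold in place of 7202, fewer rows being tested, 2 members were lower, and 2 AP-1 target genes were higher. At a threshold of 0.01, 1 member was higher, and at a log2 fold change of at least 1, 0 members were. With no filter, 6 upstream genes were lower, and 4 were higher both with the rows that carry constants left out and with the constants subtracted. Where no construction shows it, the cause was not tested. Replicate numbers gave no sign of pairing, as same-numbered deviations from the group means correlated at -0.05 to -0.02. With 3 samples per group this cannot show whether same-numbered samples shared a culture or day. With the number as a replicate block, JUN stayed past the threshold (limma, adjusted p = 0.0314), FOSL1 and ATF3 did not pass it (0.064 and 0.0804), 6761 rows passed, and 4 members were lower and 2 higher. Of the 30 genes of the lists that the naming rule selects, 3 changed their call, among them CCL2 (adjusted p = 0.101 with no filter and 0.0561 without parental replicate 2) and MAPK8. No direction reversed.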

Other observations

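Further genes of the lists, chosen after their values were seen, extend the account of the early response. CYR61 (CCN1), a matrix protein gene, rose from 7.43 ± 0.01 to 9.54 ± 0.10 and PLK2, a stress-induced kinase, from 4.0 ± 0.04 to 5.63 ± 0.02 on the log2 scale (SD, n = 3 each), with adjusted p of 2.17e-06 and 2.08e-06 from limma. DUSP1, which encodes a phosphatase of MAP kinases, rose by 0.57 (SE 0.06) and KLF6 by 0.33 (SE 0.09). IER5 went from 4.06 ± 0.05 to 2.88 ± 0.08, KLF4 from 4.09 ± 0.10 to 3.11 ± 0.09 and IER2 from 4.77 ± 0.02 to 3.90 ± 0.08, with limma's adjusted p from 1.72e-05 to 6.62e-05. Immediate early genes with a fold change in the direction opposite to EGR1 and FOS were therefore present beside those that moved with them.

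Among bZIP factors of the stress response, DDIT3, which encodes CHOP, fell from 5.95 ± 0.10 to 4.75 ± 0.04, and XBP1 went from 6.05 ± 0.09 to 5.54 ± 0.07 (limma, adjusted p = 1.54e-05 and 7.25e-04). Among the AP-1 target genes, HMGA1, a chromatin protein, fell from 8.56 ± 0.01 to 6.25 ± 0.32 and VEGFA, an angiogenic factor, from 6.66 ± 0.04 to 4.92 ± 0.08 (limma, adjusted p = 2.52e-05 and 2.76e-06). HMOX1, the heme oxygenase, rose from 2.55 ± 0.14 to 3.64 ± 0.12, and AXL, a receptor kinase that passed the filter only through the adapted cells, from 0.66 ± 0.04 to 1.80 ± 0.30 (SD, n = 3 each; by limma the adjusted p was 1.09e-04 and 6.29e-04). CCND1, which encodes cyclin D1, had a log2 fold change of -0.31 that did not pass the threshold (limma, adjusted p = 0.103).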
